A study of Mus musculus with 18 samples.

Results

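The genes of major histocompatibility complex (MHC) antigen presentation were followed in inguinal white adipose tissue, a subcutaneous fat depot, of mice bearing a lung tumour. They were chosen by name: every gene whose symbol begins with H2-, the mouse MHC, together with B2m, Tap1, Tap2, Tapbp, Psmb8, Psmb9, Psmb10, Ciita, Cd74, Nlrc5 and Erap1. This gave 45 of the 21899 gene IDs measured, 34 of them with an H2- symbol and 11 with another name. By role, 34 belong to the class I pathway and 11 to the class II pathway. Male C57BL/6J mice had been injected under the skin with the syngeneic tumour line Lewis lung carcinoma (LLC), which comes from a mouse lung tumour, or with phosphate-buffered saline (PBS), and fat was taken 21 or 7 days later. The submitters call day 21 cachexia, the wasting state of tumour bearers, and day 7 pre-cachexia. There were 5 LLC and 4 PBS libraries at day 21, and 5 LLC and 4 PBS libraries at day 7, 18 in all. The labels number the libraries within each group and do not say that each is 1 mouse, so the tests measure the spread between these libraries, part of which may be technical.

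MHC class I molecules sit on nearly all nucleated cells and show CD8 T cells peptides from proteins made inside the cell. Cytosolic proteins are cut by the proteasome or by its interferon-induced form, the immunoproteasome, the TAP transporter carries the peptides into the endoplasmic reticulum, and a heavy chain pairs there with the light chain beta-2-microglobulin. Class II molecules are made mainly by macrophages, dendritic cells and B cells, take peptides from swallowed material with the help of the invariant chain and the DM exchange factor, and show them to CD4 T cells. In fat, resident macrophages are a main class II source, and adipocytes themselves carry class I.

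Class I and class II promoters are known to share the X and Y boxes, through which Nlrc5 and Ciita, 2 co-activators of the same protein family, act. Class I promoters also carry enhancer A, a site for NF-kappaB and related factors, and an interferon response element. RefSeq promoters (GRCm38.p6, 250 bases before to 50 after the annotated start) were found for 37 of the 45 genes. The following 5 are shown because the 2 classical class I heavy chains, the secreted class I gene H2-Q10 and 2 class II chains carry the contrasts described below. H2-K1 lies at chr17:34000298-34000597 on the minus strand, H2-D1 at chr17:35262844-35263143 on the plus strand, H2-Q10 at chr17:35469839-35470138 on the plus strand, H2-Aa at chr17:34287774-34288073 on the minus strand and H2-Eb1 at chr17:34305617-34305916 on the plus strand. Each is written 5′ to 3′ on the gene's strand, and capitals mark GGGGATTCC (enhancer A), TTTCACTTC (interferon response element), TGACG (X2 box core), GCAAC (X1 box core) and CCAAT (Y box core) on either strand.
H2-K1: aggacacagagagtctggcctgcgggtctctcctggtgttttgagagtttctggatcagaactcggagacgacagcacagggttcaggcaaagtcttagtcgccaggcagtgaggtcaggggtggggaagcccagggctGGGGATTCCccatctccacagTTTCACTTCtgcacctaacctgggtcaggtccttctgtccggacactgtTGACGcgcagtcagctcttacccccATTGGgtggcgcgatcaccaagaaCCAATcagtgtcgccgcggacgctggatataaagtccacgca
H2-D1: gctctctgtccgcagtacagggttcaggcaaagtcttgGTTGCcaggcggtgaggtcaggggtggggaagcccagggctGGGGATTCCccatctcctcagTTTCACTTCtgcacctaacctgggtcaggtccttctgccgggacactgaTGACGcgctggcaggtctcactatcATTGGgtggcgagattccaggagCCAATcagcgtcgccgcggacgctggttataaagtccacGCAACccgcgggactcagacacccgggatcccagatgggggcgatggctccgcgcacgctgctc
H2-Q10: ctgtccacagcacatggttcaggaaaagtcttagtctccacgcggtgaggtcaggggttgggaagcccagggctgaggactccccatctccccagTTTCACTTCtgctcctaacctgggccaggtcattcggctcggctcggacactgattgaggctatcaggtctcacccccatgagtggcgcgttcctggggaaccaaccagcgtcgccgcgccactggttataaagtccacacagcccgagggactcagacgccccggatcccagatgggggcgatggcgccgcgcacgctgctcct
H2-Aa: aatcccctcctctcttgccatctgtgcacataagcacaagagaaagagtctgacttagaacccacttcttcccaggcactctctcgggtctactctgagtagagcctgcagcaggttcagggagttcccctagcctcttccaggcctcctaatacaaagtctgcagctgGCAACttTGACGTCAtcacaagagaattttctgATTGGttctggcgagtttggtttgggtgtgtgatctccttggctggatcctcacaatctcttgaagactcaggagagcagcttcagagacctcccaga
H2-Eb1: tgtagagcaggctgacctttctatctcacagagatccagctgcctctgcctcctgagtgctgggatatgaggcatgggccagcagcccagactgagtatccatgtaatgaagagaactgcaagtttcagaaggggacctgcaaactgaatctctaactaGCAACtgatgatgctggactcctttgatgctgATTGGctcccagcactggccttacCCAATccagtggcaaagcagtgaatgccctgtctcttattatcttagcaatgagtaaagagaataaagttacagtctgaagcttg
H2-K1 and H2-D1 hold enhancer A and the interferon element side by side, and H2-Q10 keeps only the interferon element, with no match to enhancer A or to the X1, X2 and Y cores. H2-Aa has an X1 core, 2 TGACG matches that overlap on opposite strands, and a Y core read on the other strand. H2-Eb1 has 1 GCAAC and 2 CCAAT matches. Over both strands, GGGGATTCC stood in 4 of the 29 class I pathway promoters (H2-K1, H2-D1, H2-Q6 and H2-Q7), in 0 of the 8 class II promoters and in 0.250% of 32851 mouse promoters of this length. TTTCACTTC stood in 7 of the 29 and 0 of the 8, against 0.505% of all promoters. The shorter cores are common words: CCAAT stood in 23 of the 29 and 7 of the 8 against 37.4% of all promoters, GCAAC in 7 and 6 against 35.2%, and TGACG in 14 and 1 against 20.8%. These matches describe letters in a window and are not evidence of binding.

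On the chromosome the classes are interleaved. Of the 45 genes, 39 lie on chromosome 17. The class I processing genes Psmb9, Tap1, Psmb8 and Tap2 stand in a row between the class II genes H2-DMb1 and H2-Ob, and H2-Ab1, H2-Aa, H2-Eb1 and H2-Eb2 follow.

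Libraries held between 14566155 and 18969387 reads assigned to genes, as estimated counts, of which the 45 genes took 0.670% to 1.33%. Adipocyte markers were high throughout, between 20203 and 37379.5 TPM (transcript abundance per length and depth, a unit in which genes can be summed) over the 6 markers. At day 21 a pair of libraries stood apart in immune cell markers. LLC library 3 held 1473 TPM of the 8 B cell markers, including 504 TPM of Cd79a, against at most 12.6 TPM in any other library. Inguinal fat contains a lymph node, and whether node tissue was in that piece was not tested. PBS library 4 held 2693 TPM of the 10 macrophage markers, against 416, 368 and 216 TPM in the other PBS libraries of day 21. The class II differences of day 21 are given with and without the libraries concerned. Both libraries were singled out from values in these data, so calls made without them are not independent evidence. The 4 skeletal muscle markers summed to 1.29, 1384, 7.32, 61.0 and 407 TPM in LLC fat and 3513, 679, 70.8 and 7.24 TPM in PBS fat at day 21, and reached 4731 TPM in PBS library 3 of day 7. The 4 endothelial markers summed to 392, 407, 579.6, 314 and 410.3 TPM in LLC fat and 252, 183, 270.1 and 291 TPM in PBS fat at day 21, without overlap. The part of these cells in the results below was not tested. In bulk tissue fewer cells of a type and less RNA per cell cannot be told apart.

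In this fat the light chain and the classical heavy chains were the most abundant of these transcripts. B2m, the light chain, averaged 3387 ± 207 TPM in LLC fat and 4067 ± 301 TPM in PBS fat at day 21 (SD, n = 5 and 4), and 4291 ± 367 TPM in LLC fat and 3891 ± 292 TPM in PBS fat at day 7. H2-K1 and H2-D1, whose products present most class I peptides in this strain, came next, with group means between 1678 and 2289 TPM for H2-K1 and between 1678 and 2272 TPM for H2-D1, so that the order of those 2 is within their spread. H2-K1 and H2-D1 made up 80.2% to 85.1% of all class I heavy chain TPM in every library. Cd74, the class II invariant chain, followed with group means between 464 and 1557 TPM, ahead of the class II chains H2-Aa, H2-Ab1 and H2-Eb1. H2-Eb1 encodes the beta chain of I-E, for which C57BL/6 mice lack a working alpha chain gene. The non-classical heavy chains H2-Q10, H2-T22, H2-T23, H2-Q4, H2-Q6 and H2-Q7 had group means between 41.1 and 301 TPM, and the peptide loading, immunoproteasome and regulator genes had means of 18.8 TPM or more except Ciita.

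Of the 45 genes, 29 passed the filter on low counts at each day, 20 of class I and 9 of class II. The other 16 were 14 non-classical class I genes and 2 class II genes, H2-Eb2 and H2-Oa. The H2-M1, H2-M10.1, H2-M10.3, H2-M10.4, H2-M10.5 and H2-M10.6 genes had 0 counts in all 18 libraries. The H2-M10 family is known from the vomeronasal organ. H2-Oa, the alpha chain of DO, which restrains DM, had 39.1 CPM (counts scaled to the library total, with library sizes adjusted by edgeR's TMM) in LLC library 3 of day 21 and at most 0.662 CPM elsewhere. H2-Eb2 likewise had 38.7 CPM there and at most 0.408 CPM elsewhere. Both are named because of those values.

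At day 21 the most abundant class I transcripts were lower in LLC fat by fold change, and the class II transcripts tested were higher. Of the 20 class I genes tested, 13 were lower and 7 higher (median log2 fold change -0.17), and all 9 class II genes were higher (median 1.20), beside a median of 0.017 over 13564 genes. The class II median was 0.42 without LLC library 3, and 0.71 without both that library and PBS library 4. No member passed a Benjamini-Hochberg adjusted p of 0.05 over all genes in edgeR's quasi-likelihood test, a threshold that 0.0885% of all genes passed. At an unadjusted p under 0.05, 8 class I genes were lower and 1 higher and 4 class II genes were higher and 0 lower, where 11.5% of all genes were lower and 11.9% higher. DESeq2 called 6 members, all of them class I genes that were lower in LLC fat (H2-D1, H2-K1, H2-Q10, Tap2, Tapbp and Psmb9), beside 8.83% of all genes in either direction. The call depended on the fit: 1 fit of all 18 libraries called 13 members, 8 class I genes lower and 5 class II genes higher, beside 8.54% of all genes lower and 10.5% higher, and Tap2 and H2-Q10 were called lower without PBS library 4, beside 5.81% of all genes called higher and 3.49% lower.

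H2-K1 had 1178, 1615, 1274, 1655 and 1512 CPM in the LLC libraries of day 21 and 2245, 2193, 2102 and 2045 CPM in the PBS libraries. H2-D1 had 1663, 2132, 1643, 1682 and 2080.2 CPM in LLC fat and 2887, 2751, 2669 and 2699 CPM in PBS fat. Neither gene had an LLC library at the level of any PBS library, with LLC libraries 1 and 3 among the lowest. The log2 fold changes were -0.59 ± 0.17 (SE, here and below from the edgeR fit) for H2-K1 and -0.60 ± 0.17 for H2-D1, both with an adjusted p of 0.101 in edgeR's test. With DESeq2 their adjusted p were 0.000687 and 0.000132, and over all alternatives they ranged between 0.000687 and 0.278 for H2-K1 and between 0.000132 and 0.308 for H2-D1. B2m had 1298, 1710.3, 1327, 1946 and 1675 CPM in LLC fat and 2088, 2003, 2222 and 1940.1 CPM in PBS fat, with LLC library 4 alone reaching the level of a PBS library. Its log2 fold change was -0.40 ± 0.18 (adjusted p = 0.218).

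**Figure D1:**
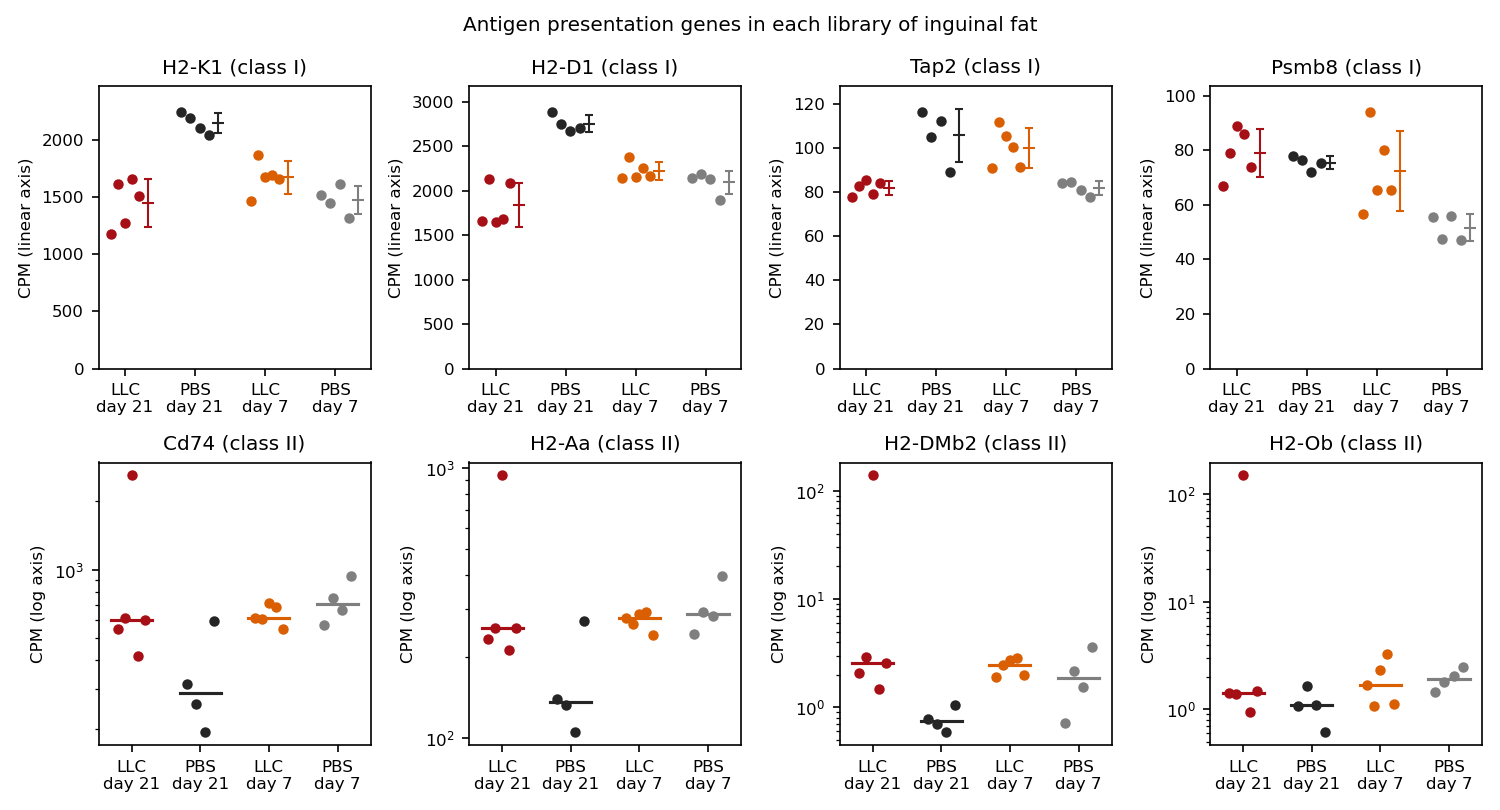
CPM of 4 class I genes (upper row, linear axes) and 4 class II genes (lower row, log axes), with a point for each library of the 4 groups, the mean and SD beside the points in the upper row and the group median as a line in the lower row. For H2-K1 and H2-D1 the 5 LLC libraries of day 21 sit below the 4 PBS libraries, and for the class II genes LLC library 3 of day 21 sits far above all others, at 2607 CPM for Cd74.

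H2-Q10, whose product is a secreted class I molecule best known from liver, had the lowest log2 fold change of the class I genes tested. It had 46.3, 132, 41.2, 122 and 105 CPM in LLC fat and 268, 313, 344 and 136 CPM in PBS fat. LLC libraries 1 and 3 were the lowest, and PBS library 4 lay just above the highest LLC library. Its log2 fold change was -1.59 ± 0.40 (adjusted p = 0.0816). Without PBS library 4 and LLC library 3 the difference was -1.62 ± 0.33 (adjusted p = 0.0323, in a range of 0.00385 to 0.244 over the alternatives tried). At the other end stood the non-classical gene H2-M9, named after its values were seen. It had 3.15, 6.03, 2.48, 11.9 and 3.601 CPM in LLC fat and 0.422, 1.57, 0.913 and 4.24 CPM in PBS fat, with PBS library 4 among the LLC libraries (1.57 ± 0.70, adjusted p = 0.212).

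The 2 chains of the peptide transporter are given side by side, since the difference between them was not tested. Tap2 had 77.8, 82.5, 85.6, 79.0 and 84.2 CPM in LLC fat and 116, 105, 112 and 89.0 CPM in PBS fat, without overlap (log2 fold change -0.39 ± 0.10, adjusted p = 0.0868). In TPM its groups overlapped, with 53.1, 43.3, 55.2, 31.3 and 43.3 in LLC fat and 62.2, 48.9, 51.0 and 46.1 in PBS fat. Over the alternatives its adjusted p ranged between 0.00706 and 0.562. Tap1 had 53.1, 47.8, 72.7, 49.5 and 49.1 CPM in LLC fat and 51.4, 46.8, 49.9 and 58.4 CPM in PBS fat, with LLC library 3 on its own at the top (0.06 ± 0.15, adjusted p = 0.833). Psmb8, the immunoproteasome subunit that replaces the standard chymotrypsin-like subunit, had overlapping groups, with 66.9, 79.1, 88.7, 86.0 and 74.0 CPM in LLC fat and 77.9, 76.4, 72.1 and 75.5 CPM in PBS fat (0.04 ± 0.10). Psmb9, another immunoproteasome subunit, which overlaps Tap1 on the opposite strand, had 22.8, 25.7, 29.5, 21.0 and 22.7 CPM in LLC fat and 32.2, 35.0, 34.4 and 27.2 CPM in PBS fat (-0.42 ± 0.13, adjusted p = 0.113). LLC library 3 alone exceeded the lowest PBS library. Nlrc5, the co-activator of class I genes, differed by -0.11 ± 0.12, and by 0.12 with limma on log2 TPM. Tapbp, which encodes tapasin, the bridge between TAP and the heavy chain, averaged 269 ± 16.6 CPM in LLC fat and 339 ± 32.0 CPM in PBS fat without overlap (-0.35 ± 0.11, adjusted p = 0.123), and was named after its values were seen. In all, 6 of the 20 class I genes tested had every LLC library below every PBS library in CPM (H2-D1, H2-K1, H2-Q10, H2-Q4, Tap2 and Tapbp), beside 4.47% of all genes. In TPM the groups of H2-Q4, Tap2 and Tapbp overlapped.

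Among class II genes of day 21, Cd74 had 551, 617, 2607, 418 and 602 CPM in LLC fat and 315, 257, 193 and 593 CPM in PBS fat. H2-Aa had 233, 256, 938, 211 and 255 CPM in LLC fat and 139.8, 133, 105 and 272 CPM in PBS fat. In both, LLC library 3 lay far above the rest, the other LLC libraries lay above PBS libraries 1 to 3, and PBS library 4 lay among the LLC libraries. The log2 fold changes were 1.48 ± 0.60 for Cd74 (adjusted p = 0.183) and 1.20 ± 0.51 for H2-Aa (adjusted p = 0.199). Without LLC library 3 they were 0.70 ± 0.34 and 0.56 ± 0.29 (adjusted p = 0.308 and 0.324). Without that library and PBS library 4 they were 1.09 ± 0.23 and 0.91 ± 0.16 (adjusted p = 0.0367 and 0.0190). PBS library 4 was the highest PBS library for both genes, so leaving it out was bound to raise both differences. Over the alternatives the adjusted p of Cd74 ranged between 0.0339 and 0.385 and that of H2-Aa between 0.0190 and 0.398. With both libraries out, H2-DMb2 was also called higher (1.68 ± 0.39, adjusted p = 0.0438, range 0.0145 to 0.351), and Tap2, Psmb9 and H2-Q10 were called lower, making 6 members, beside 4.91% of all genes called higher and 1.79% lower.

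The other class II genes followed the same libraries. H2-Ab1 had 206, 218, 667, 133 and 206 CPM in LLC fat and 137, 115, 94.3 and 228 CPM in PBS fat (log2 fold change 0.97 ± 0.48, adjusted p = 0.247), and H2-Eb1 had 170.5, 199, 651, 112 and 192 CPM in LLC fat and 131, 108, 84.6 and 194 CPM in PBS fat (1.01 ± 0.50, adjusted p = 0.251). H2-DMa, the alpha chain of DM, had 22.7, 25.9, 86.1, 17.2 and 16.2 CPM in LLC fat and 13.5, 14.5, 10.04 and 24.3 CPM in PBS fat (1.09 ± 0.53). H2-DMb1 had 26.8, 27.1, 38.5, 10.8 and 15.1 CPM in LLC fat and 9.10, 10.1, 10.5 and 23.3 CPM in PBS fat (0.82 ± 0.41). In these 4 genes PBS library 4 was the highest PBS library, and LLC library 3 the highest of all. Without LLC library 3 the log2 fold changes were 0.42 ± 0.29 for H2-Ab1, 0.39 ± 0.28 for H2-Eb1, 0.41 ± 0.29 for H2-DMa and 0.60 ± 0.40 for H2-DMb1. Without that library and PBS library 4 they were 0.71 ± 0.22 for H2-Ab1, 0.63 ± 0.24 for H2-Eb1, 0.68 ± 0.23 for H2-DMa and 1.00 ± 0.34 for H2-DMb1, with adjusted p between 0.0921 and 0.151.

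A second set of class II genes had low values outside LLC library 3. H2-Ob, the beta chain of DO, had 1.43, 1.40, 149, 0.950 and 1.47 CPM in LLC fat and 1.08, 1.64, 1.11 and 0.614 CPM in PBS fat. H2-DMb2, a second DM beta chain, had 2.06, 2.92, 139, 1.46 and 2.53 CPM in LLC fat and 0.783, 0.692, 0.587 and 1.04 CPM in PBS fat, and Ciita, the co-activator of class II genes, had 11.5, 9.36, 111, 2.09 and 7.14 CPM in LLC fat and 6.63, 4.85, 2.54 and 8.97 CPM in PBS fat. The DO subunits are known mainly from B cells, and LLC library 3 held the B cell markers given above. Whether those cells carry these genes here was not tested. The log2 fold changes with all libraries were 4.77 ± 1.84 for H2-Ob, 5.22 ± 1.71 for H2-DMb2 and 2.27 ± 1.06 for Ciita (adjusted p = 0.166, 0.125 and 0.231). Without LLC library 3 they were 0.26 ± 0.36 for H2-Ob, 1.53 ± 0.35 for H2-DMb2 and 0.40 ± 0.53 for Ciita. H2-DMb2 was the only class II gene tested with every LLC library above every PBS library, at low counts, beside 5.23% of all genes.

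Macrophage markers, when summed, kept the order of the class II sums across the PBS libraries of day 21 but not across the LLC libraries. Summed over the 10 markers, they came to 4566, 1949, 2543, 1264 and 924 TPM in the LLC libraries of day 21 and 416, 368, 216 and 2693 TPM in the PBS libraries, and to between 1214 and 3231 TPM at day 7. All 10 were higher in LLC fat at day 21 (median log2 fold change 0.96), none past an unadjusted p of 0.05. Of the 9 dendritic cell markers 7 were higher and 2 lower in LLC fat at day 21 (median 0.41). At an unadjusted p under 0.05, 2 were higher and 1 lower, beside 11.9% of all genes higher and 11.5% lower. None of the 10 macrophage or 9 dendritic cell markers was at 0 in any library. PBS library 4, high in macrophage markers, was also the highest PBS library for each class II gene tested except H2-Ob. LLC library 1 had the highest macrophage sum and Cd74 close to libraries 2 and 5. LLC library 5 had 924 TPM of macrophage markers and 1839 TPM of class II, and LLC library 1 had 4566 and 2264 TPM. Adipocyte markers came to 20203, 22859.7, 28298, 20674 and 37379.5 TPM in LLC fat and 28772, 29450.3, 32532 and 26541 TPM in PBS fat at day 21. The part of cell composition in either class was not tested.

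**Figure D2:**
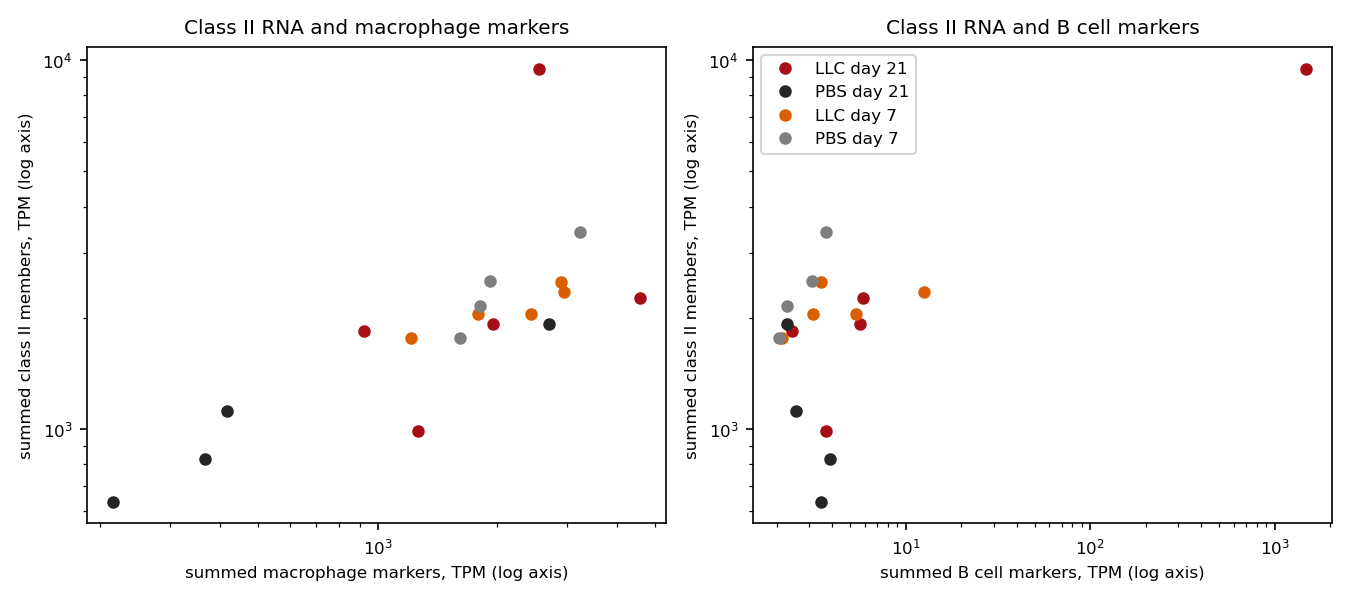
Summed class II TPM against summed macrophage markers (left) and summed B cell markers (right), all on log axes in TPM, with a point for each of the 18 libraries coloured by group. PBS libraries 1 to 3 of day 21 lie low for both macrophage markers and class II, and LLC library 3 of day 21 stands alone with 1473 TPM of B cell markers and 9454 TPM of class II.

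At day 7 the class I transcripts lay higher in LLC fat by fold change, and the class II transcripts had no common direction. All 20 class I genes tested had a positive log2 fold change, higher in LLC fat, with a median log2 fold change of 0.28 (range 0.01 to 0.74), beside a median of 0.0045 over all 13445 genes tested. The 9 class II genes had a median of -0.03, 3 higher and 6 lower. No member passed an adjusted p of 0.05 in edgeR's test, beside 0.00744% of all genes, and DESeq2 also called 0 members, beside 0.44% of all genes. At an unadjusted p under 0.05, 11 class I genes were higher and 0 lower, where 4.86% of all genes were higher and 3.64% lower, and 0 of the 9 class II genes passed in either direction.

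Among the class I processing genes at day 7, Psmb8 had 56.7, 94.2, 65.5, 80.0 and 65.5 CPM in the 5 LLC libraries of day 7 and 55.7, 47.6, 56.1 and 47.1 CPM in the 4 PBS libraries. Every LLC library stood above every PBS library, the lowest by a margin of under 1 CPM. The log2 fold change was 0.49 ± 0.14 (adjusted p = 0.401). Tap1 had 46.2, 81.3, 55.0, 77.1 and 46.0 CPM in LLC fat and 45.2, 39.1, 43.5 and 37.9 CPM in PBS fat. LLC libraries 2 and 4 were the highest for both genes, and again the groups did not overlap, with a log2 fold change of 0.57 ± 0.18 (adjusted p = 0.425). Tap2 had 91.0, 112, 105, 100.5 and 91.1 CPM in LLC fat against 84.0, 84.6, 80.9 and 77.7 CPM in PBS fat. Its groups did not overlap either, and its log2 fold change of 0.29 ± 0.08 had the lowest adjusted p of the members (0.399). These 3 were the only tested members whose groups did not overlap at day 7 in CPM, and 1.18% of all genes had every LLC library above every PBS library. In TPM the groups of Tap1 overlapped, with 27.7 in LLC library 5 and 28.9 in PBS library 4. None had every LLC library below every PBS library, which 1.35% of all genes had.

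The groups of day 7 overlapped for the classical heavy chains, the light chain and the regulator Nlrc5. H2-K1 had 1467, 1866, 1670.3, 1693 and 1653 CPM in LLC fat and 1518, 1443, 1613 and 1318 CPM in PBS fat (log2 fold change 0.19 ± 0.10, adjusted p = 0.654). H2-D1 differed by 0.09 ± 0.09 and B2m by 0.16 ± 0.09. Nlrc5 had 46.1, 62.7, 41.0, 65.0 and 46.8 CPM in LLC fat and 40.3, 39.6, 41.7 and 45.6 CPM in PBS fat. LLC libraries 2 and 4 were again highest (0.33 ± 0.14, adjusted p = 0.56). Psmb9 had 21.0 to 36.3 CPM in LLC fat and 18.6 to 25.0 CPM in PBS fat (0.30 ± 0.16, adjusted p = 0.667). Among the non-classical chains, H2-Q7, which encodes Qa-2, differed by 0.48 ± 0.15 (adjusted p = 0.425), and H2-T22, whose product is seen by some gamma-delta T cells, by 0.27 ± 0.08 (adjusted p = 0.408). H2-T23, which encodes Qa-1 and was named after its values were seen, had 95.2, 170.0, 134, 169 and 103 CPM in LLC fat and 87.1, 95.2, 95.4 and 86.0 CPM in PBS fat (0.56 ± 0.17, adjusted p = 0.408).

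Among class II genes at day 7, Cd74 had 615, 607, 712, 683 and 548 CPM in LLC fat and 574, 751, 666 and 944 CPM in PBS fat. PBS library 4 was the highest and the groups overlapped (log2 fold change -0.21 ± 0.14, adjusted p = 0.725). H2-Aa had 279, 264, 289, 293 and 240.4 CPM in LLC fat against 243, 294, 283 and 398 CPM in PBS fat (-0.15 ± 0.13, adjusted p = 0.80). H2-Ab1 and H2-Eb1 differed by -0.13 ± 0.11 and -0.14 ± 0.11, and Ciita by -0.03 ± 0.17. The exchange factor genes H2-DMa, H2-DMb1 and H2-DMb2 differed by 0.12 ± 0.13, 0.06 ± 0.10 and 0.24 ± 0.37, and H2-Ob by -0.02 ± 0.35. With PBS library 4 of day 7 left out, H2-Aa differed by 0.00.

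**Figure D3:**
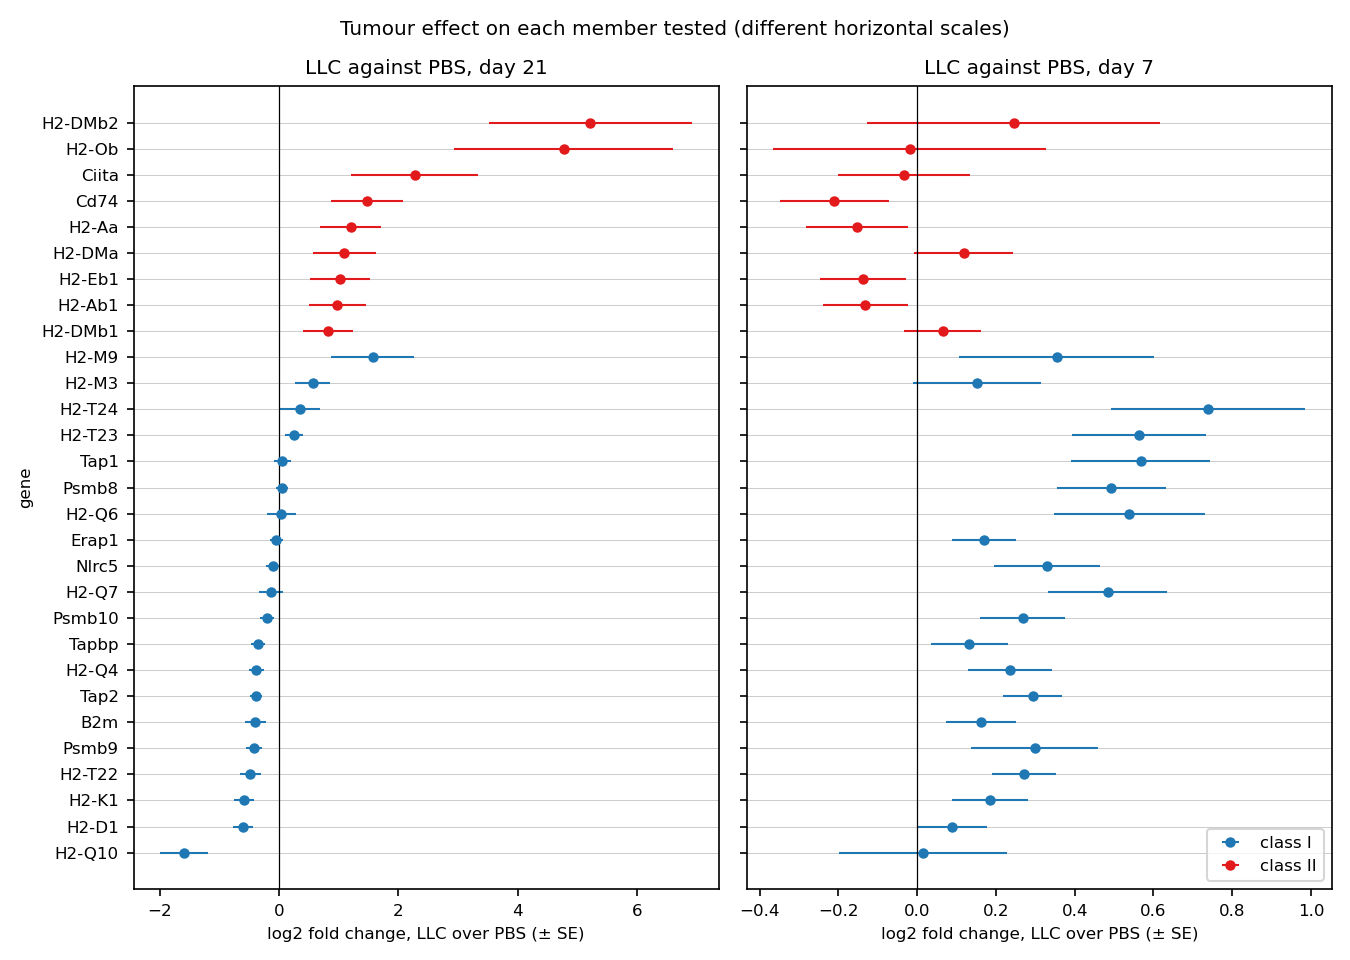
Log2 fold change of LLC over PBS for the 29 members tested, at day 21 on the left and day 7 on the right, with bars of 1 SE and different horizontal scales (blue class I, red class II). At day 21 the 9 class II genes lie right of 0 and 13 class I genes left of it, and at day 7 all 20 class I genes lie right of 0.

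Summed per length, class II TPM were 2264, 1920.0, 9454, 984 and 1839 in LLC fat and 1117, 827, 634 and 1924 in PBS fat at day 21. At day 7 they were 2045, 2049.5, 2500.1, 2344 and 1756 in LLC fat and 1764, 2512, 2149 and 3406 in PBS fat. PBS libraries 1 to 3 and LLC library 4 of day 21 held the lowest sums of the 18. Class I heavy chain TPM were 4282, 4461, 4451, 3043 and 4252 in LLC fat and 6193, 5308, 5044 and 5450.4 in PBS fat at day 21, without overlap. At day 7 they were 4455, 5518, 5231, 5301 and 4497 in LLC fat and 4276, 4732, 4614 and 4441 in PBS fat, which overlapped.

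The ratio of summed class II TPM to class I heavy chain and B2m TPM described the 2 classes in each library. At day 21 it was 0.291, 0.240, 1.20, 0.162 and 0.239 in LLC fat and 0.105, 0.0915, 0.0698 and 0.203 in PBS fat. Only PBS library 4 reached the LLC range, above LLC library 4. At day 7 it was 0.238, 0.202, 0.264, 0.235 and 0.212 in LLC fat and 0.219, 0.296, 0.258 and 0.388 in PBS fat, which overlapped, with the highest values in PBS fat.

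**Figure D4:**
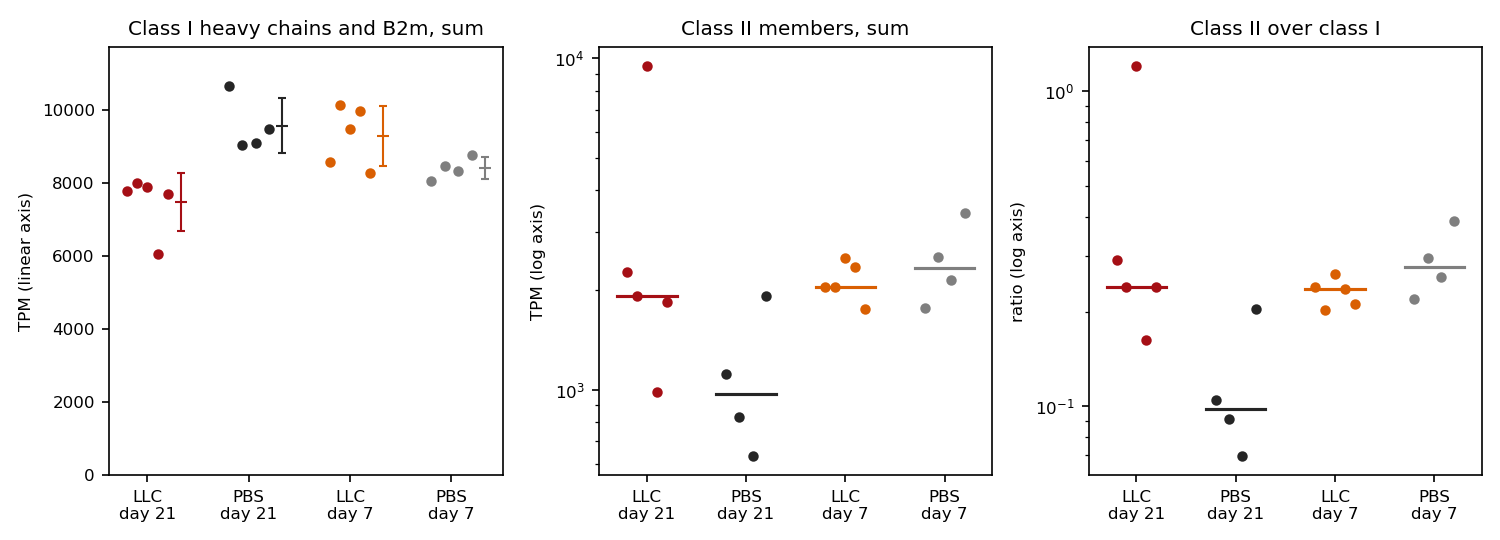
Summed TPM of class I heavy chains and B2m (left, linear axis, mean and SD), summed TPM of class II members (middle, log axis, group median as a line) and their ratio (right, log axis, group median as a line), with a point for each library. PBS libraries 1 to 3 of day 21 have ratios between 0.0698 and 0.105, and LLC library 3 of day 21 has 1.20.

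Whether the tumour effect differed between the days was asked in 1 fit of all 18 libraries, as the effect at day 21 minus the effect at day 7. Tap2 was the only member called, with a difference of -0.66 ± 0.12 on the log2 scale (adjusted p = 0.0292), where 0.15% of 13975 genes were called lower and 0.265% higher. As each of the 18 libraries was left out in turn, the call held in 9 fits and was lost in 9, those without 1 of LLC libraries 2 and 3 of day 7, PBS libraries 1 to 4 of day 7 or PBS libraries 1 to 3 of day 21. In the 9 that lost it the difference was -0.68 to -0.61, with adjusted p between 0.0536 and 0.0892. Over all alternatives it ranged between 2.69e-05 with DESeq2 and 0.268 with limma on log2(TPM + 1). H2-K1 and H2-D1 followed at -0.75 ± 0.17 and -0.67 ± 0.16 (both adjusted p = 0.0641). Of 20 class I genes, 18 were lower (median -0.48) and 13 were lower at an unadjusted p under 0.05, beside 7.93% of all genes. All 10 class II genes were higher (median 1.54), 8 of them at an unadjusted p under 0.05, beside 10.2% of all genes, and the median was 0.51 without LLC library 3. Calls among members also came to 2 without LLC library 1 of day 21 (beside 0.603% of all genes called higher and 0.596% lower), 4 without LLC library 2 (1.29% and 1.36%), 3 without LLC library 5 (0.366% and 0.387%) and 9 without PBS library 4 (5.97% and 2.67%). Without PBS library 4 and LLC library 3 together, 11 were called, among them Cd74 (1.29 ± 0.26) and H2-Aa (1.05 ± 0.20) higher and Tap2 (-0.78 ± 0.11) and H2-K1 (-0.76 ± 0.18) lower, beside 5.1% of all genes called higher and 2.63% lower. Those libraries were singled out from their values, so the 11 calls are not independent evidence. DESeq2 called 9 class I genes lower, beside 4.01% of all genes in either direction.

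The same libraries were also set by day within each treatment. Each day had its own libraries, so day cannot be told apart from mouse age, time since injection or any processing batch. In PBS fat, H2-K1 averaged 2146 ± 89.8 CPM at day 21 and 1473 ± 124 CPM at day 7, and was higher at day 21 by 0.54 ± 0.13 on the log2 scale (adjusted p = 0.0322). Tap2 was higher by 0.37 ± 0.09 (adjusted p = 0.0346), Psmb8 by 0.55 ± 0.13 (adjusted p = 0.0356) and H2-Q7 by 0.79 ± 0.20 (adjusted p = 0.0426). On log2(TPM + 1) with limma, where the median of all genes was -0.17, none of the 4 was called. The difference there was 0.34 for H2-K1 (adjusted p = 0.181), 0.15 for Tap2 (adjusted p = 0.606), 0.34 for Psmb8 (adjusted p = 0.271) and 0.60 for H2-Q7 (adjusted p = 0.124). These 4 were the members called by edgeR, beside 0.694% of all genes called higher and 2.52% lower. Of 20 class I genes, 17 were higher at day 21 (median 0.37), 11 of them at an unadjusted p under 0.05 beside 9.47% of all genes, and all 10 class II genes were lower (median -0.83) with 0 called. Cd74 averaged 339.6 ± 176 CPM at day 21 and 734 ± 158 CPM at day 7 in PBS fat (-1.11 ± 0.48, adjusted p = 0.197).

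Without PBS library 4 of day 21, 10 members were called in PBS fat, 9 class I genes higher and H2-DMb1 lower, beside 3.46% of all genes called higher and 8.5% lower. DESeq2 called 11 class I genes higher, beside 6.08% of all genes in either direction. With LLC library 3 also out, 19 were called: 11 class I genes higher, H2-M9 lower, and 7 class II genes lower, among them Cd74 by -1.51 ± 0.20 and H2-Aa by -1.25 ± 0.16 (adjusted p = 0.000184 and 0.000102, the lowest over the alternatives, with highest values of 0.416 and 0.466), beside 6.32% of all genes called higher and 10.1% lower. PBS library 4 and LLC library 3 were singled out from their values, so the calls without them are not independent evidence. Without any 1 of the other 7 PBS libraries, at most 1 member was called. Where a call was lost the log2 fold change was 0.49 to 0.59 for H2-K1, 0.51 to 0.59 for Psmb8, 0.32 to 0.39 for Tap2 and 0.71 to 0.82 for H2-Q7. The sum of the macrophage markers was lower in PBS libraries 1 to 3 of day 21 than in any day 7 library. All 10 markers had a negative log2 fold change in PBS fat, 3 at an unadjusted p under 0.05, beside 10.9% of all genes. Of the 9 dendritic cell markers 3 were higher and 6 lower in PBS fat at day 21 (median -0.41). At an unadjusted p under 0.05, 1 was higher and 2 lower, beside 9.47% of all genes higher and 10.9% lower. The 1 called, Cd209a, was lower at day 21 by 1.99 ± 0.31 on the log2 scale (adjusted p = 0.00404), beside 2.52% of all genes called lower.

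In LLC fat no member was called between day 21 and day 7 by edgeR, beside 0.844% of all genes called higher and 0.93% lower. H2-K1 averaged 1447 ± 211 CPM at day 21 and 1669.9 ± 142 CPM at day 7 (-0.21 ± 0.11, adjusted p = 0.351), and Tap2 averaged 81.8 ± 3.32 CPM at day 21 and 99.95 ± 9.03 CPM at day 7 (-0.29 ± 0.08, adjusted p = 0.072), the lowest adjusted p of the members. At an unadjusted p under 0.05, 5 class I genes were lower and 3 class II genes (H2-DMb2, H2-Ob and H2-Oa) higher, beside 7.71% and 10.9% of all genes. DESeq2 called Tap2, Tapbp and H2-D1 lower, beside 4.5% of all genes in either direction. The class II median was 0.54, and -0.22 without LLC library 3. H2-DMb2, H2-Ob and H2-Oa were called higher without LLC library 1 of day 21 (beside 3.68% of all genes called higher and 3.76% lower) or without LLC library 2 (2.4% and 1.92%), and H2-T22 was called lower without LLC library 5 (0.645% and 0.731%). Without LLC library 3 and PBS library 4 the log2 fold changes were -0.10 for H2-DMb2, -0.54 for H2-Ob and -0.43 for H2-Oa. Since the tumour effects at both days and the changes by day use the same 4 groups, they are not independent of each other.

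Beyond the 45 genes, 43 others of the pathway were listed, of which 41 were tested at day 7 and 42 at day 21, and none was called in any of the 5 comparisons. At an unadjusted p under 0.05, 7 were higher and 1 lower at day 7, and 2 were higher and 6 lower at day 21, beside 4.86% of all genes higher and 3.64% lower at day 7 and 11.9% and 11.5% at day 21. Irf1, an interferon-induced activator of class I genes, differed by -0.11 ± 0.17 at day 21 and 0.28 ± 0.12 at day 7. Ifng itself reached at most 0.351 CPM and was not tested. Psme1 and Psme2, the subunits of an interferon-induced proteasome cap, differed by 0.21 ± 0.17 and -0.32 ± 0.14 at day 21, and by 0.15 ± 0.08 and 0.18 ± 0.09 at day 7. Ctss, the protease that trims the invariant chain, differed by 1.05 ± 0.93 at day 21 and 0.39 ± 0.36 at day 7.

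Class I relatives encoded outside the MHC were lower in LLC fat at day 21, 5 of 5 by fold change, 3 at an unadjusted p under 0.05 (beside 11.5% of all genes) and 0 past the adjusted threshold. Named after their values were seen, Cd1d1, which presents lipids to NKT cells, differed by -1.32 ± 0.25 (adjusted p = 0.0634), Mr1, which presents vitamin metabolites to MAIT cells, by -0.99 ± 0.23 (adjusted p = 0.0751), and Hfe, a regulator of iron uptake, by -0.63 ± 0.20 (adjusted p = 0.118). At day 7 they differed by -0.32 ± 0.12, -0.01 ± 0.10 and -0.24 ± 0.12.

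The authors' deposited table lists 3 members with a false discovery rate under 0.05 at day 21, all lower in LLC fat, and 0 at day 7. The share of all genes under that rate was not counted, so the 3 cannot be set beside it. In the authors' deposited table the log2 ratio of mean TPM was -0.45 for H2-K1 (false discovery rate 0.0012), -1.50 for H2-Q10 (0.0025) and -0.44 for H2-D1 (0.011). For Tap2 at day 21 it was -0.20 (0.42). The class II members all had positive ratios at day 21 and none was under 0.05. Among them Cd74 had a ratio of 1.75 (0.0510).

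Reads of the near-identical H2-K1, H2-D1, H2-Q and H2-T families are divided between genes by the estimate behind the counts, so the split within them, above all between H2-Q6 and H2-Q7, is uncertain. No strand step is named for the library kit, so reads of overlapping genes on opposite strands, such as B2m and Patl2, Tap1 and Psmb9 (212 shared bases), Ciita and Dexi, or H2-DMa and Brd2, cannot be told apart.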

How the data were processed

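Poly(A) RNA of 18 inguinal fat libraries was sequenced with a NEBNext Ultra kit, per the labels' protocols. Reads were trimmed with fastp 0.23.0 and quantified with RSEM on mm10 (GRCm38), per the submitters' processing notes. The aligner, the annotation release and the software behind their comparisons were not given in the sources used here. For each day, the authors deposited estimated counts rounded to whole numbers, TPM, and their own log2 ratios of mean TPM (LLC over PBS) with p-values. The deposited log2 ratios and p-values were only quoted. No per-sample column was left unmapped.

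Counts were fitted in R 4.3.3 with edgeR 4.0.16 (TMM scaling, filterByExpr, quasi-likelihood F test, two-sided, Benjamini-Hochberg over all genes tested, threshold 0.05). The 9 libraries of a day were fitted together, and all 18 were fitted as 4 group means for the difference between days and for day 21 against day 7. SE is the absolute log2 fold change over the square root of F, an approximation. CPM are scaled by TMM over all 18 libraries, and groups were called non-overlapping on those values. DESeq2 1.42.0, limma 3.58.1 on log2(TPM + 1) and log2(TPM + 0.1), other scaling and filters, a robust fit, the replicate number as a block and left-out libraries were alternatives. The fits were tested on simulated counts.

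Members, gene lists and tests were chosen with earlier results of these data known. Values are given for 15 members fixed by name, for members past the threshold in a comparison and for the 3 with the smallest p in each direction at each day, and other genes are named because of their values. Gene positions and overlaps are from GENCODE vM21, promoters from RefSeq (GRCm38.p6). Promoters of the other 8 members were not used here. Total counts per library limit precision, and SD and SE include counting error. Results on some genes are not reported here.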

Additional observations from a re-analysis of the deposited data

Results flagged for a closer look

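Of 84 groups of 4 or 5 libraries examined over 20 members and the class ratio, 12 held a library far from the others of its group. Chance alone flags about 1 in 20 independent groups, and these groups share libraries.

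At day 21, 10 of the 12 were LLC library 3. It held 937.6 CPM of H2-Aa, where the next LLC library had 256 CPM, 667 CPM of H2-Ab1 (next 218), 651 CPM of H2-Eb1 (next 199) and 2607 CPM of Cd74 (next 617). It held 111 CPM of Ciita (next 11.5), 86.1 CPM of H2-DMa (next 25.9), 149 CPM of H2-Ob (next 1.47) and 139 CPM of H2-DMb2 (next 2.92). Tap1 stood at 72.7 CPM there (next 53.1), and the ratio of class II to class I TPM at 1.20 (next 0.291). The same library held 1473 TPM of B cell markers, and the part of those cells in these values was not tested.

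H2-DMb1 stood at 23.3 CPM in PBS library 4 of day 21 (next 10.5), the library with 2693 TPM of macrophage markers. H2-T22 stood at 232 CPM in LLC library 5 of day 21 (next 155).

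The tumour effect on Tap2 differed between the days by -0.66 on the log2 scale, by a test of the difference itself in edgeR (adjusted p = 0.0292). In CPM every LLC library was below every PBS library at day 21 and above at day 7, but in TPM the groups of day 21 overlapped. The call was lost in 9 of 18 fits with 1 library left out. It was also lost with limma on log2(TPM + 1) (adjusted p = 0.268).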

How the results depend on the processing

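Members called at day 21 numbered 0 as reported, 6 with DESeq2, 13 in 1 fit of all 18 libraries, 6 without PBS library 4 and LLC library 3 together, and 0 to 2 with a single library left out. Of all genes, 0.0885% were called as reported and 8.83% with DESeq2. In 1 fit of all 18 libraries 10.5% were higher and 8.54% lower, and without both libraries 4.91% and 1.79%. The rise in calls was thus not confined to members. For the difference between days members called numbered 1 as reported, 9 with DESeq2, 0 with limma on log2(TPM + 1) and 0 on log2(TPM + 0.1), 11 without both libraries, and 0 to 9 leaving out each library. Of all genes, 0.265% were higher and 0.15% lower as reported, and 4.01% were called with DESeq2. Limma on log2(TPM + 1) called 17 of 13975 genes higher and 4 lower. Without both libraries 5.1% were higher and 2.63% lower. For day 21 against day 7 in PBS fat members called numbered 4 as reported, 11 with DESeq2, 2 with no filter, 0 under both limma fits, 19 without both libraries and 0 to 10 leaving out each. Of all genes, 0.694% were higher and 2.52% lower as reported, and 6.08% were called with DESeq2. With no filter 61 of 18337 genes were higher and 263 lower. Limma on log2(TPM + 1) called 15 of 13975 genes higher and 404 lower. Without both libraries 6.32% were higher and 10.1% lower. In LLC fat members called numbered 0 as reported, 3 with DESeq2 and 0 to 3 leaving out each. Of all genes, 0.844% were higher and 0.93% lower as reported, and 4.5% were called with DESeq2. At day 7 members called numbered 0 under every alternative run, where DESeq2 called 0.44% of all genes.

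The class I median at day 21 was -0.17, and -0.0846 with DESeq2, -0.0899 with no filter, -0.0641 and -0.0655 with limma, -0.26 without both libraries and -0.22 to -0.10 leaving out each. The limma fits moved the median of all genes at day 21 to 0.13 and 0.15, so class I stood lower relative to it. For the difference between days the class I median was -0.34 and -0.35 with limma, where all genes stood at 0.15 and 0.17, and -0.58 to -0.41 leaving out each library. In PBS fat it was 0.16 under both limma fits (all genes -0.17 and -0.20). The class II median, leaving out each library, was 0.42 to 1.57 at day 21, 0.51 to 1.93 for the difference between days (0.84 without both), and -0.22 to 0.72 in LLC fat (-0.24 without both). Without Cd74 the median class ratio at day 7 was 0.128 in LLC fat and 0.147 in PBS fat.

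Small effects at day 7 turned sign as single libraries were left out, with ranges of -0.14 to 0.13 for Ciita, -0.31 to 0.13 for H2-Ob, -0.25 to 0.0043 for H2-Aa, -0.0293 to 0.69 for H2-DMb2 and -0.19 to 0.18 for H2-Q10. At day 21 the ranges were -0.0376 to 0.12 for Tap1 (-0.0006 without both libraries) and -0.22 to 0.0443 for H2-Q7, and Nlrc5 was 0.12 under both limma fits. Nlrc5 in PBS fat was -0.18 and -0.19 with limma. For day 21 against day 7 in LLC fat the ranges were -0.22 to 0.79 for Cd74, -0.0956 to 3.94 for H2-DMb2 and -0.54 to 4.33 for H2-Ob, each lowest without LLC library 3 and equal to that without both (-0.22, -0.0956 and -0.54). The cause of these changes was not tested.

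With the replicate number as a block (pairing libraries 1 to 4), 0 members were called at day 7 and 0 at day 21, and Ciita and H2-Ob at day 7 were 0.0361 and 0.0498. Same-numbered LLC and PBS libraries deviated with correlations of 0.15, -0.02, 0.19 and 0.24 at day 7 and -0.28, 0.33, 0.08 and -0.16 at day 21. The labels state no pairing, and correlations over so few pairs cannot decide whether there was one. Of the single-gene values, 845 with a library left out and 660 under the other alternatives kept direction and call, 36 and 12 lost a call, 20 and 50 gained one, and 19 and 10 changed sign. Depth limits H2-Ob, H2-DMb2, H2-Oa and H2-Eb2, at a few CPM or less outside LLC library 3. The filter on low counts left 16 members untested at each day, 6 of them with 0 counts in all 18 libraries.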
